A study of Mus musculus with 6 samples.

Results

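The melanocyte lineage genes examined here are Mitf, Dct, Tyr, Tyrp1, Pmel, Mlana, Kit, Ednrb, Mc1r and Rab38. They were found among the array's non-control probes by the RefSeq accession or description of each probe, with the older names Si for Pmel and Mart1 for Mlana, and not by any measured value. All 10 were found, each by 1 probe with 1 spot per array, among 20868 probes. All 10 entered the test, which ran over 20082 genes and unnamed probes. The Mlana probe was matched only through a description that calls its transcript weakly similar to the human melanocyte antigen MART-1.

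The CD34+ group held keratinocytes that carried both the alpha-6 integrin and CD34, called stem and progenitor cells in the labels. The CD34- group held alpha-6 integrin-positive keratinocytes without CD34, called basal cells. Both came from trypsin-digested skin of adult mice aged 7 weeks, and no strain, genotype or treatment of the mice is stated in the labels. The fractions of 3 biological replicates were hybridised against each other on 2-colour arrays of 60-base probes, on 2 arrays per replicate with the dyes Cy3 and Cy5 exchanged. The labels do not say whether a replicate was 1 animal or a pool. A sort on these surface proteins takes keratinocytes as a population, and any other alpha-6-positive cell would enter it too.

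Melanocytes make pigment inside melanosomes and pass it to keratinocytes of the epidermis and the hair. In the hair follicle of the mouse, melanocyte stem cells lie in and just below the bulge, the niche that also holds the CD34-positive epithelial stem cells. Mitf is the master transcription factor of the lineage and activates the pigment enzyme genes Tyr, Tyrp1 and Dct through a promoter element called the M-box. Melanocyte stem cells of the mouse are recognised by Dct at a stage when the other pigment genes are low. The receptors Kit and Ednrb carry survival and migration signals from keratinocytes, and Mc1r sets the kind of pigment made.

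The promoters of the pigment enzyme genes are shown because Dct, Tyr and Tyrp1 share the M-box core, and of these 3 genes Dct passed the test below and Tyr and Tyrp1 did not. The sequences are RefSeq's, 250 bases before to 50 after a start site, and 7 of the 10 genes had an entry. Pmel, Mlana and Rab38 had none. Capitals mark the M-box core TCATGTG or its reverse complement.

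Dct, GRCm38.p6 chr14:118052197-118052496, minus strand: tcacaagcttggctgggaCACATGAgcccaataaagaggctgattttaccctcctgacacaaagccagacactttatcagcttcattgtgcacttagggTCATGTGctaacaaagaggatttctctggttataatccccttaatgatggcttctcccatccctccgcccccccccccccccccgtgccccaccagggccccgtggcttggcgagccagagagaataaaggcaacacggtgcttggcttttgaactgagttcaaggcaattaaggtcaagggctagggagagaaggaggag

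Tyr, GRCm38.p6 chr7:87493463-87493762, minus strand: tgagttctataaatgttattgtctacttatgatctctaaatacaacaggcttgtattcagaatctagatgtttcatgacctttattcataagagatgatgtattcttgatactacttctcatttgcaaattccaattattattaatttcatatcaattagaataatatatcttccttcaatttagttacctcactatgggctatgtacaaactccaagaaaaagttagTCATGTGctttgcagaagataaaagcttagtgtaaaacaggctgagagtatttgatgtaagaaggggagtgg

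Tyrp1, GRCm38.p6 chr4:80833963-80834262, plus strand: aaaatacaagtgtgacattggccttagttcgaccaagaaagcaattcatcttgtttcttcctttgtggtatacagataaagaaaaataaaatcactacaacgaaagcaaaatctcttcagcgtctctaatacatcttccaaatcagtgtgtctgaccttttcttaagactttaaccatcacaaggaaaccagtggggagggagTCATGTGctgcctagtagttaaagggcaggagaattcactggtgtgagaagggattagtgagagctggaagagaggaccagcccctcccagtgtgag

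The M-box core was searched on both strands. It stood in the promoters of 4 of the 7 genes with an entry, namely Dct, Tyr, Tyrp1 and Mc1r, and in 3.78% of all 32817 promoters of the table. In Dct it occurred at -151 to -145 from the start site and, on the opposite strand, at -232 to -226. In Tyr it lay at -22 to -16, in Tyrp1 at -47 to -41 and in Mc1r at -52 to -46. The 6-base E-box CATGTG, whose letters lie within the M-box core, was held by the same 4 genes and by 14.2% of all promoters. The Mc1r promoter held a second E-box of this kind outside its M-box core. The E-box CACGTG, which also binds MITF, was in 0 of the 7 and in 7.15% of all. The SOX-type motif ACAAAG was in 2 of the 7, Dct and Tyrp1, and in 18.7% of all. These are matches of letters in a window and describe no binding. A gene was counted once, if any of its promoters held the motif, while the shares of all are over promoters. Mitf had 3 promoters, Kit 2 and every other gene with an entry 1.

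Mitf was placed at 3 start sites in the table. None of the 3 windows held any of the 4 motifs, and which of these transcripts the probe reads was not analysed here. The most upstream and the most downstream of them are shown, since they begin the transcripts of the gene with the largest rise among the 10.

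Mitf, GRCm38.p6 chr6:97806808-97807107, plus strand: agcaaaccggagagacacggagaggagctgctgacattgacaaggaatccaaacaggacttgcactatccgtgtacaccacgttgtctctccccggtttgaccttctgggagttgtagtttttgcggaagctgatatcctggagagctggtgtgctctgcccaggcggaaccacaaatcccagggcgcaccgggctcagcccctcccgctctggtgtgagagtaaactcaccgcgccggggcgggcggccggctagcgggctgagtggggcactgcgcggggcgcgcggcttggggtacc

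Mitf, GRCm38.p6 chr6:97991533-97991832, plus strand: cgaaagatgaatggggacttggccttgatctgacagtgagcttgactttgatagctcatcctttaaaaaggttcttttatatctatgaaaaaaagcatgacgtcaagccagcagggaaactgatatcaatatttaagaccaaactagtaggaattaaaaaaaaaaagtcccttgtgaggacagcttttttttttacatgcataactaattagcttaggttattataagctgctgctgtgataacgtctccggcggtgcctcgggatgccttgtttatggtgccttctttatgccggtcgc

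All values of change are log2 ratios of CD34+ over CD34-, averaged over the 2 arrays of a replicate and then over replicates, with the SD over 3 replicates. The p-values come from limma with Benjamini-Hochberg adjustment over all 20082 features, and a gene is said to rise or fall where the adjusted p lies under 0.05. The p-values rest on the spread between these 3 replicates, which limma moderates for each gene by the spread over all features. Of all features, 12.1% passed, with 5.41% higher and 6.64% lower in CD34+ cells. An offset of 50 was added to the intensities before the ratio, which understates the change of dim genes, so the mean of the ratios deposited by the authors is given beside it for many of the genes. The 6 arrays gave 3 values per gene for the test.

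The sort on CD34 was visible in the transcripts. Cd34, the gene of the surface protein used for the gate, rose by 5.84 ± 0.43 in CD34+ cells (SD, n = 3, adjusted p 0.00367). Itga6, the alpha-6 integrin on which both fractions were gated, fell by 1.18 ± 0.27 (SD, n = 3, adjusted p 0.0180) on the brighter of its 2 probes. With the mean of both probes it was at -0.98 (adjusted p 0.0175). Since both fractions were gated positive for this protein, the fall is no check of the sort. Both populations had 92.9% to 97.7% of probes well above background on an array, and this mark alone is no evidence of expression. The median net intensity of the 162 negative control spots, over their local background, was 6.17 to 17.5 scanner units in Cy5 and 25.1 to 80.7 units in Cy3. The arrays of replicate 3 were read with an older version of the scanner software than those of replicates 1 and 2.

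Among the 10 genes, Mitf and Dct rose in CD34+ cells, Rab38 fell, and the other 7 did not pass. A rise in 2 of 10 stands beside 5.41% of all features, and a fall in 1 of 10 beside 6.64%. The 10 genes were chosen with earlier results of these data known, so these shares only describe them. The median ratio of the 10 was 0.037, against 0.0042 for all features tested. At an unadjusted p under 0.05 the count was 3 of 10 too, beside 30.6% of all features at that threshold. Without replicate 1, 0 of all features passed in limma, and 4637 had an unadjusted p under 0.05. There Cd34 did not pass either (adjusted p 0.0904), at 5.85 against 5.84 with all 3 replicates. That fit of 2 replicates therefore cannot show what a single call rests on. With no replicate block, the channels fitted as unpaired, 0 of the 10 passed. In RNA of a sorted population, more cells of a type and more RNA per cell cannot be told apart.

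**Figure D1:**
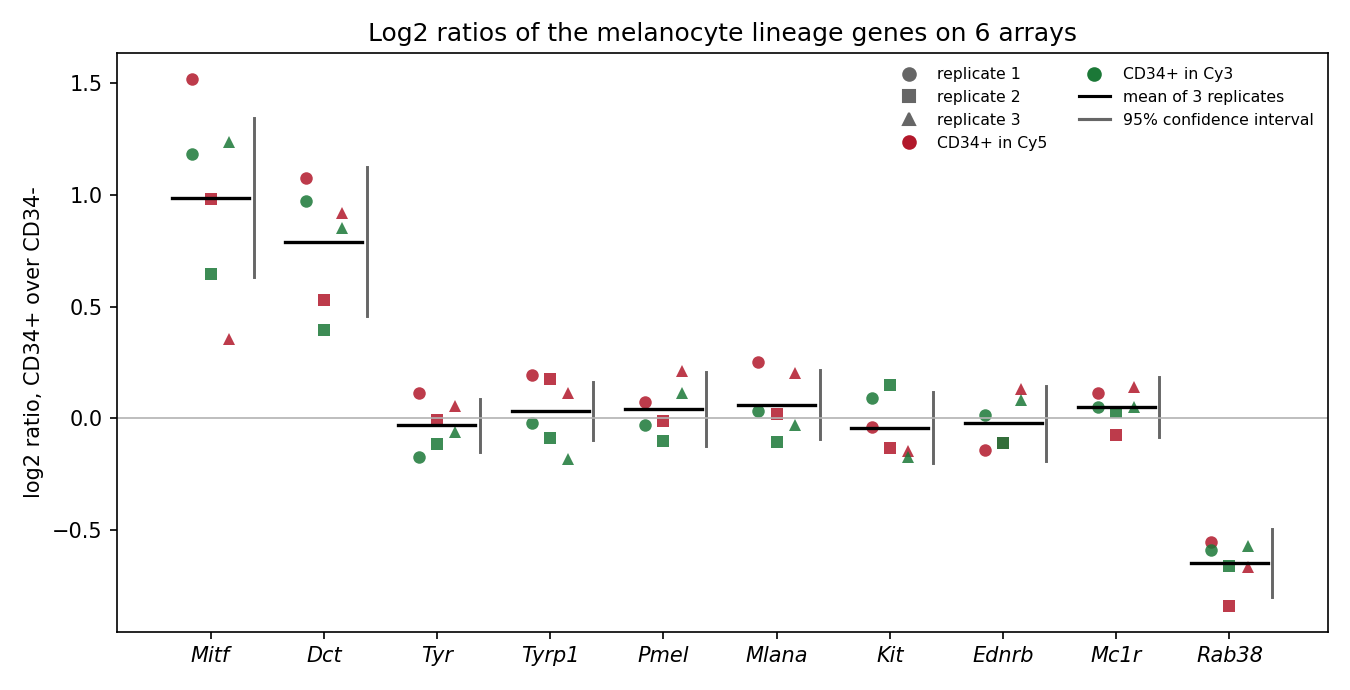
Log2 ratio of CD34+ over CD34- cells (vertical axis) for each of the 10 genes (horizontal axis) on each of 6 arrays. Symbols stand for the 3 replicates, colours for the dye of the CD34+ sample, black bars for the mean of 3 replicates and grey lines for its 95% confidence interval from limma. All 6 points of Mitf and of Dct lie above 0, all 6 of Rab38 below it, and the intervals of the other 7 genes include 0.

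Mitf, on chromosome 6 from 97807002 to 98021360 (GRCm38.p6), encodes the transcription factor that directs melanocyte fate and pigment gene expression. Its net intensity over local background, before dye normalisation and averaged over 2 arrays, was 260, 142 and 313 units in CD34+ cells of replicates 1, 2 and 3, against 66.6, 74.2 and 218 units in CD34- cells. Each CD34+ value exceeded the CD34- value of its own replicate, while the groups overlapped across replicates, since CD34- cells of replicate 3 were brighter than CD34+ cells of replicate 2. The replicate ratios were 1.35, 0.81 and 0.80, with a mean of 0.99 ± 0.31 (SD, n = 3), a 1.98-fold difference with a 95% confidence interval of 0.63 to 1.34 on the log2 scale. The adjusted p was 0.0258, and the gene was higher in CD34+ cells on 6 of 6 arrays. On the deposited ratios, which carry no such offset, Mitf was at 1.45 ± 0.54, or 2.74-fold.

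The arrays of Mitf did not agree closely within replicate 3. There the ratio was 0.35 with CD34+ in Cy5 and 1.24 with CD34+ in Cy3, whereas in replicate 1 it was 1.52 and 1.18 and in replicate 2 it was 0.98 and 0.65. The direction was thus the same on every array, and the size differed most between the arrays of replicate 3. Averaged over replicates, the ratio was 0.95 with CD34+ in Cy5 and 1.02 with CD34+ in Cy3. With CD34+ in Cy5 alone the adjusted p was 0.0559, and with CD34+ in Cy3 alone it was 0.0263. The adjusted p was 0.0904 without replicate 1 and 0.0783 without replicate 2, at 0.80 and 1.07, and 0.0562 with scaling between arrays.

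Dct, on chromosome 14 from 118012790 to 118052246 (GRCm38.p6), encodes dopachrome tautomerase, an enzyme of eumelanin synthesis and an early marker of the lineage. Its net intensity was 255, 200 and 398 units in CD34+ cells, against 92.1, 181 and 245 units in CD34- cells. The CD34+ value was the higher one in each replicate, by least in replicate 2, and the groups overlapped across replicates. The replicate ratios were 1.02, 0.46 and 0.89, with a mean of 0.79 ± 0.29 (SD, n = 3), a 1.73-fold difference with an interval of 0.46 to 1.12 on the log2 scale. Its adjusted p was 0.0326, and 6 of 6 arrays were higher in CD34+ cells. The deposited ratios gave 1.04 ± 0.41, or 2.06-fold. Without replicate 1 the adjusted p was 0.125 at 0.67, and with scaling between arrays it was 0.0556.

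Tyr encodes tyrosinase, the rate-limiting enzyme of melanin synthesis, and Tyrp1 encodes the tyrosinase-related protein that acts beside it. Tyr had 36.4, 37.3 and 93.3 units in CD34+ cells and 36.9, 47.5 and 113 units in CD34- cells. Tyrp1 had 44.0, 31.8 and 90.3 units in CD34+ cells and 37.9, 38.3 and 107 units in CD34- cells. The populations overlapped for both genes, and in each population replicate 3 was the brightest. The median negative control was also highest in replicate 3. In Cy3 it was 73.9 and 80.7 units there, against 25.1 to 34.0 units in replicates 1 and 2. In Cy5 it was 17.5 and 16.65 units, against 6.17 to 9.01 units. The Tyr ratio was -0.032 ± 0.029 (SD, n = 3) with an interval of -0.15 to 0.086 and an adjusted p of 0.669. The Tyrp1 ratio was 0.032 ± 0.060 (SD, n = 3) with an interval of -0.099 to 0.16 and an adjusted p of 0.702. On the deposited ratios the intervals were wider, from -0.31 to 0.14 for Tyr and from -0.080 to 0.44 for Tyrp1.

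Tyr and Tyrp1 were near the negative controls, which limits what could be seen. In CD34+ cells Tyr exceeded all 162 negative control spots on 3 of 6 arrays, and in CD34- cells on 2 of 6. For Tyrp1 this was so on 3 arrays in CD34+ cells and on 1 in CD34- cells. Dct, by comparison, exceeded all of them on 5 arrays in CD34+ cells and on 4 in CD34- cells. Mitf did so on 5 arrays in CD34+ cells and on 2 in CD34- cells. These counts depend on the brightest control spot of each array. On its lowest array in CD34+ cells, Tyr exceeded 159 of the 162 spots, and Tyrp1, Dct and Mitf exceeded 161 each. In CD34- cells the lowest was 143 for Tyr, 147 for Tyrp1, 161 for Dct and 160 for Mitf. The intervals of Dct and of Tyr and Tyrp1 do not overlap on either kind of ratio, and the difference between these genes was not tested. The 3 genes share the M-box core shown above.

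Pmel, which builds the fibrils on which melanin is laid down, and Mlana, a small membrane protein of early melanosomes, did not pass either. Pmel had 80.8, 88.1 and 159 units in CD34+ cells and 71.6, 136 and 169 units in CD34- cells. Its ratio was 0.042 ± 0.11 (SD, n = 3), with an interval of -0.12 to 0.21 and an adjusted p of 0.689. The sign of the Pmel replicates differed, and 3 of 6 arrays were higher in CD34+ cells. On the deposited ratios the Pmel interval was wider, from -0.19 to 0.31. Pmel exceeded all 162 negative control spots on 4 arrays in CD34+ cells and on 2 in CD34- cells. Mlana had 42.0, 37.4 and 90.8 units in CD34+ cells and 33.4, 47.7 and 99.3 units in CD34- cells. It was the only gene of the 10 not well above background throughout, since it passed that mark on 6 arrays in CD34+ cells and on 5 in CD34- cells. On its lowest array in CD34- cells Mlana exceeded 119 of the 162 negative control spots, the lowest such count of the 10 genes. Its ratio was 0.061 ± 0.096 (SD, n = 3), with an interval of -0.092 to 0.21 and an adjusted p of 0.525. On the deposited ratios Mlana was at 0.21 with an interval of -0.15 to 0.57, so a change of that size was not detectable here.

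None of the 3 receptor genes passed the test. Kit, the receptor tyrosine kinase for stem cell factor, had 63.7, 58.5 and 97.9 units in CD34+ cells and 57.1, 76.5 and 122 units in CD34- cells. The Kit ratio was -0.041 ± 0.10 (SD, n = 3), with an interval of -0.20 to 0.12 and an adjusted p of 0.682. The sign differed between replicates, and 2 of 6 arrays were higher in CD34+ cells. Ednrb, the endothelin receptor of melanoblasts, had 52.8, 49.8 and 120 units in CD34+ cells and 53.7, 74.1 and 121 units in CD34- cells. The Ednrb ratio was -0.022 ± 0.11 (SD, n = 3), with an interval of -0.19 to 0.14 and an adjusted p of 0.840. The Ednrb replicates had no common direction, with 3 arrays on either side of 0. On the deposited ratios the intervals were wider, from -0.35 to 0.19 for Kit and from -0.35 to 0.20 for Ednrb. Kit and Ednrb each exceeded all 162 negative control spots on 4 arrays in CD34+ cells and on 2 in CD34- cells. This limits what could be seen for both genes.

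Mc1r, the melanocortin receptor that favours dark pigment, had 249.5, 186 and 224 units in CD34+ cells and 212, 259 and 277 units in CD34- cells. The Mc1r ratio was 0.052 ± 0.065 (SD, n = 3), with an interval of -0.082 to 0.19 and an adjusted p of 0.536. It was higher in CD34+ cells on 5 of 6 arrays, by amounts within the spread between replicates. Its promoter carries the M-box core, as those of Dct, Tyr and Tyrp1 do.

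Rab38, on chromosome 7 from 88430273 to 88491572 (GRCm38.p6), encodes a small GTPase that carries tyrosinase and Tyrp1 to the melanosome and acts in lysosome-related organelles of other cells too. It had 710, 475 and 360 units in CD34+ cells, against 896, 1130 and 693 units in CD34- cells. It exceeded all 162 negative control spots on 6 of 6 arrays in both populations, which no other of the 10 genes did. The CD34+ value was the lower one in each replicate, and the groups overlapped only in that CD34+ cells of replicate 1 were brighter than CD34- cells of replicate 3. The replicate ratios were -0.57, -0.75 and -0.62, with a mean of -0.65 ± 0.092 (SD, n = 3), which is 1.57-fold lower in CD34+ cells with an interval of -0.80 to -0.50. The adjusted p was 0.0153 and 6 of 6 arrays were lower in CD34+ cells. The deposited ratios gave -0.71 ± 0.095. The adjusted p was 0.0916 without replicate 1 and 0.0684 without replicate 2.

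**Figure D2:**
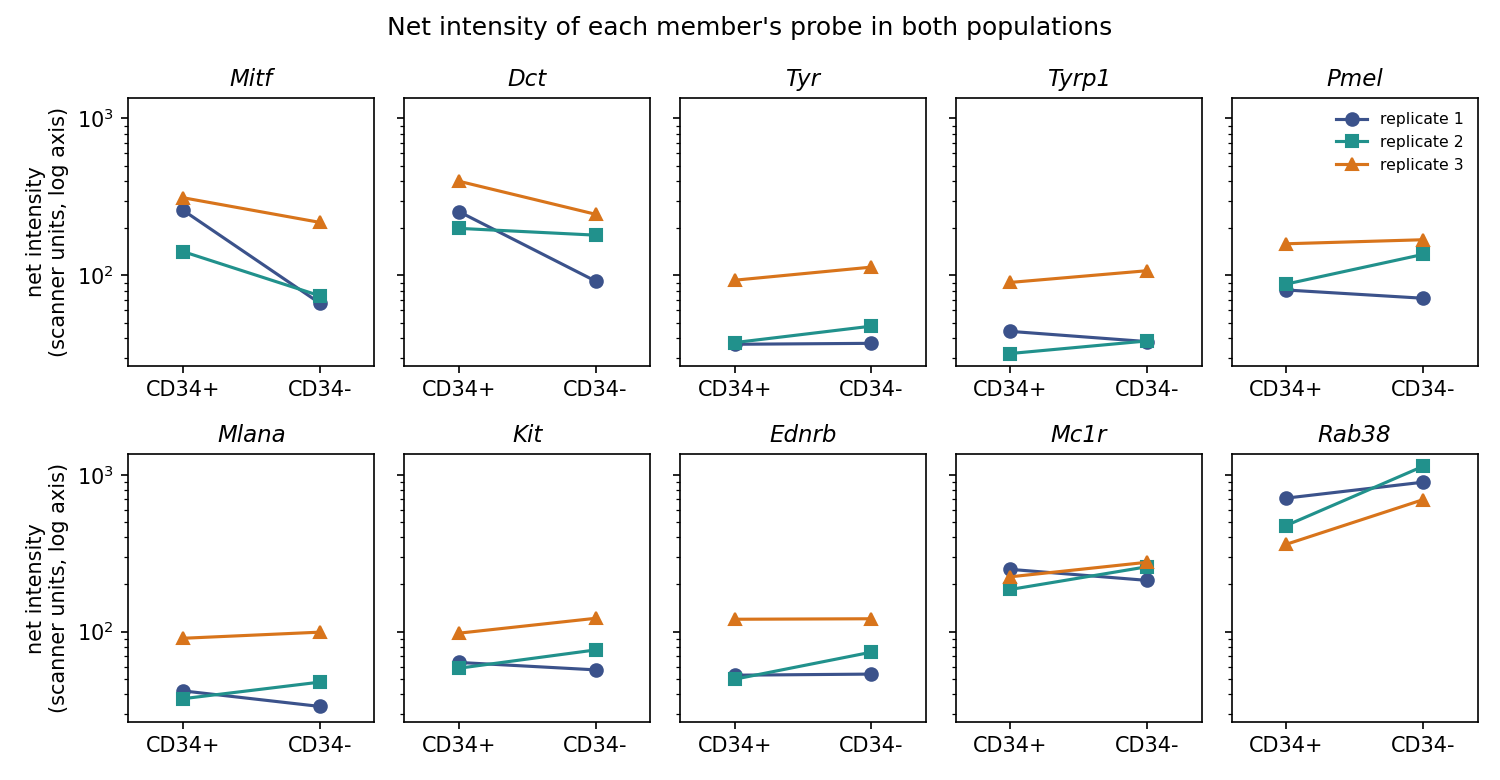
Net intensity over local background (vertical log axis, scanner units, before dye normalisation) of each gene's probe in CD34+ and CD34- cells (horizontal axis), with 1 line per replicate that joins the means of its 2 arrays. Mitf and Dct lines run down from CD34+ to CD34-, Rab38 lines run up, and Tyr, Tyrp1 and Mlana stay near the lower end in replicates 1 and 2.

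Of the other transcription factors of melanocytes, 0 of 8 rose and 1 fell, beside 5.41% higher and 6.64% lower of all features. At an unadjusted p under 0.05 in limma there were 3 of 8, beside 30.6% of all features. Irf4, which acts with MITF at the Tyr gene in melanocytes and also works in lymphoid cells, fell by 0.27 ± 0.047 (SD, n = 3, adjusted p 0.0375), and its deposited ratio was -0.41. Sox10, the neural crest factor that switches on Mitf and a defining marker of melanocytes, was at 0.012 ± 0.031 with an adjusted p of 0.878, at mean intensities of 362 units in CD34+ cells and 437 units in CD34- cells. The Mitf and Dct rises were thus not accompanied by a change in Sox10 that passed the test. The call of Irf4 ended without replicate 2 (adjusted p 0.230), with median centring (0.0802), with scaling between arrays (0.0559) and with CD34+ in Cy3 only (0.0572). The list's median was -0.065. Snai2, named here once its values were known, was at 0.75 ± 0.64 (SD, n = 3) and did not pass (adjusted p 0.144). Its replicate ratios were 0.79, 1.37 and 0.087. Without replicate 3, 1 gene of this list was called higher, and also 1 when the 6 arrays were fitted singly with a dye term.

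Among other pigment proteins of the melanosome, 1 of 7 rose and 0 fell, beside 5.41% higher and 6.64% lower of all features. The unadjusted count was 1 of 7 too, beside 30.6%. Gpnmb, a glycoprotein related to Pmel and known also from macrophages, rose by 0.69 ± 0.26 (SD, n = 3, adjusted p 0.0349), with replicate ratios of 0.74, 0.91 and 0.40. Its deposited ratio was 1.11, and its adjusted p was 0.122 without replicate 2 and 0.0545 with scaling between arrays. The list's median was 0.0013.

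Genes of melanosome biogenesis and transport include many that serve lysosomes in all cells. Of 18 tested, 1 rose, 3 fell and 14 did not pass, with a median of 0.068, beside 5.41% higher and 6.64% lower of all features. At an unadjusted p under 0.05 there were 8 of 18, beside 30.6% of all features. Bloc1s1, a subunit of the sorting complex BLOC-1, rose by 0.57 ± 0.19 (SD, n = 3, adjusted p 0.0306). Dtnbp1 and Bloc1s4, subunits of the same complex, fell by 0.39 ± 0.12 and 0.30 ± 0.055 (adjusted p 0.0350 and 0.0339). Rab32, the close relative of Rab38 that shares its role in carrying pigment enzymes, fell by 0.53 ± 0.12 (SD, n = 3, adjusted p 0.0222), with replicate ratios of -0.41, -0.54 and -0.65. The deposited ratios were -0.70 for Rab32, -0.56 for Dtnbp1, 0.59 for Bloc1s1 and -0.33 for Bloc1s4. Both GTPases were therefore lower in CD34+ cells in every replicate. Without replicate 2 the adjusted p was 0.110 for Rab32, 0.139 for Bloc1s1, 0.175 for Dtnbp1 and 0.214 for Bloc1s4. Median centring ended the calls of Bloc1s1, Dtnbp1 and Bloc1s4 (adjusted p 0.0928, 0.0509 and 0.122), and scaling between arrays that of Bloc1s1 (0.0537). Bloc1s4 did not pass on the deposited ratios (0.0599) or with an offset of 0 (0.0597) either. The reading of either GTPase probe on the transcript of the other GTPase was not analysed here.

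The ligand genes act from keratinocytes on the receptors above. Of 9 ligands and modulators, 2 rose and 0 fell, with a median of -0.031, beside 5.41% higher and 6.64% lower of all features. At an unadjusted p under 0.05 there were 5 of 9, beside 30.6% of all features. Kitl, stem cell factor and the ligand of Kit, rose by 0.62 ± 0.12 (SD, n = 3, adjusted p 0.0188), with replicate ratios of 0.70, 0.49 and 0.67 and a deposited ratio of 1.15. Without replicate 2 its adjusted p was 0.0556. Nfib, a transcription factor that in mouse hair follicle stem cells holds back endothelin expression, rose by 1.89 ± 0.31 (SD, n = 3, adjusted p 0.0120), and passed without replicate 2 too. The endothelin genes Edn1, Edn2 and Edn3, named here once their values were known, did not pass. Their ratios were -0.51 ± 0.45, -0.96 ± 0.58 and -0.031 ± 0.033, with adjusted p-values of 0.155, 0.0756 and 0.685.

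Markers of other cells that could carry these transcripts were read in the same arrays, and their part in the members' values was not tested. Of 10 mast cell markers, which matter because mast cells express Mitf and Kit, 0 passed. The lowest adjusted p in that list was that of the protease gene Mcpt4, at 0.26 ± 0.11 with an adjusted p of 0.0701, and their summed intensity was 2171 to 2212 units in CD34+ cells and 1953 to 2955 units in CD34- cells. Of 8 Schwann cell and neural crest markers 0 passed. The summed level of that list was 1230 to 1940 units in CD34+ cells and 1155 to 2267 units in CD34- cells. At an unadjusted p under 0.05 there were 2 of 10 mast cell markers and 1 of 8 Schwann cell markers, both shares under the 30.6% of all features. On the deposited ratios Mcpt4 was at 0.46, with an adjusted p of 0.0575, and it passed in 2 of the 16 alternatives.

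Of 7 endothelial markers 0 passed, with Emcn, a sialomucin of vessels, at 0.41 ± 0.24 and an adjusted p of 0.0825. Emcn was higher by 0.67 on the deposited ratios, where it passed (adjusted p 0.0359), and it passed in 6 of the 16 alternatives. Their summed level was 561 to 1188 units in CD34+ cells and 513 to 1264 units in CD34- cells. Of 7 fibroblast markers 1 rose, beside 5.41% of all features. This was the collagen gene Col1a2, by 1.02 ± 0.11 (SD, n = 3, adjusted p 0.0104), while the list's median was 0.19. The summed fibroblast level was 1230 to 1421 units in CD34+ cells and 766 to 1240 units in CD34- cells. Of 5 Langerhans cell markers 0 passed, and their median was -0.30. The lowest adjusted p was 0.125 for Epcam, a cell adhesion gene of many epithelia, at 0.19 ± 0.11. The other 4, Cd207, H2-Aa, H2-Ab1 and Cd74, had ratios of -0.14, -0.34, -0.30 and -0.42, and their summed level was 374 to 1235 units in CD34+ cells and 466 to 1818 units in CD34- cells. With Epcam, which made up most of it, the sum was 3773 to 4794 units in CD34+ cells and 3435 to 5632 units in CD34- cells. Of 5 T cell markers 0 passed, with Cd3d, a T cell receptor subunit, at 0.26 ± 0.078 and an adjusted p of 0.0511. On the deposited ratios Cd3d was at 0.52 and passed (adjusted p 0.0428), and it passed in 5 of the 16 alternatives. The other 4, Cd3e, Cd3g, Thy1 and Cd5, had ratios of 0.21, 0.40, -0.14 and -0.032, and the list's median was 0.21. The summed T cell level, before dye normalisation, was 2134 to 3146 units in CD34+ cells and 2400 to 3918 units in CD34- cells. Cd3e made up most of it, with means of 2021 units in CD34+ cells and 2229 units in CD34- cells. At an unadjusted p under 0.05 there were 1 of 7 endothelial, 3 of 7 fibroblast, 1 of 5 Langerhans and 2 of 5 T cell markers, beside 30.6% of all features.

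**Figure D3:**
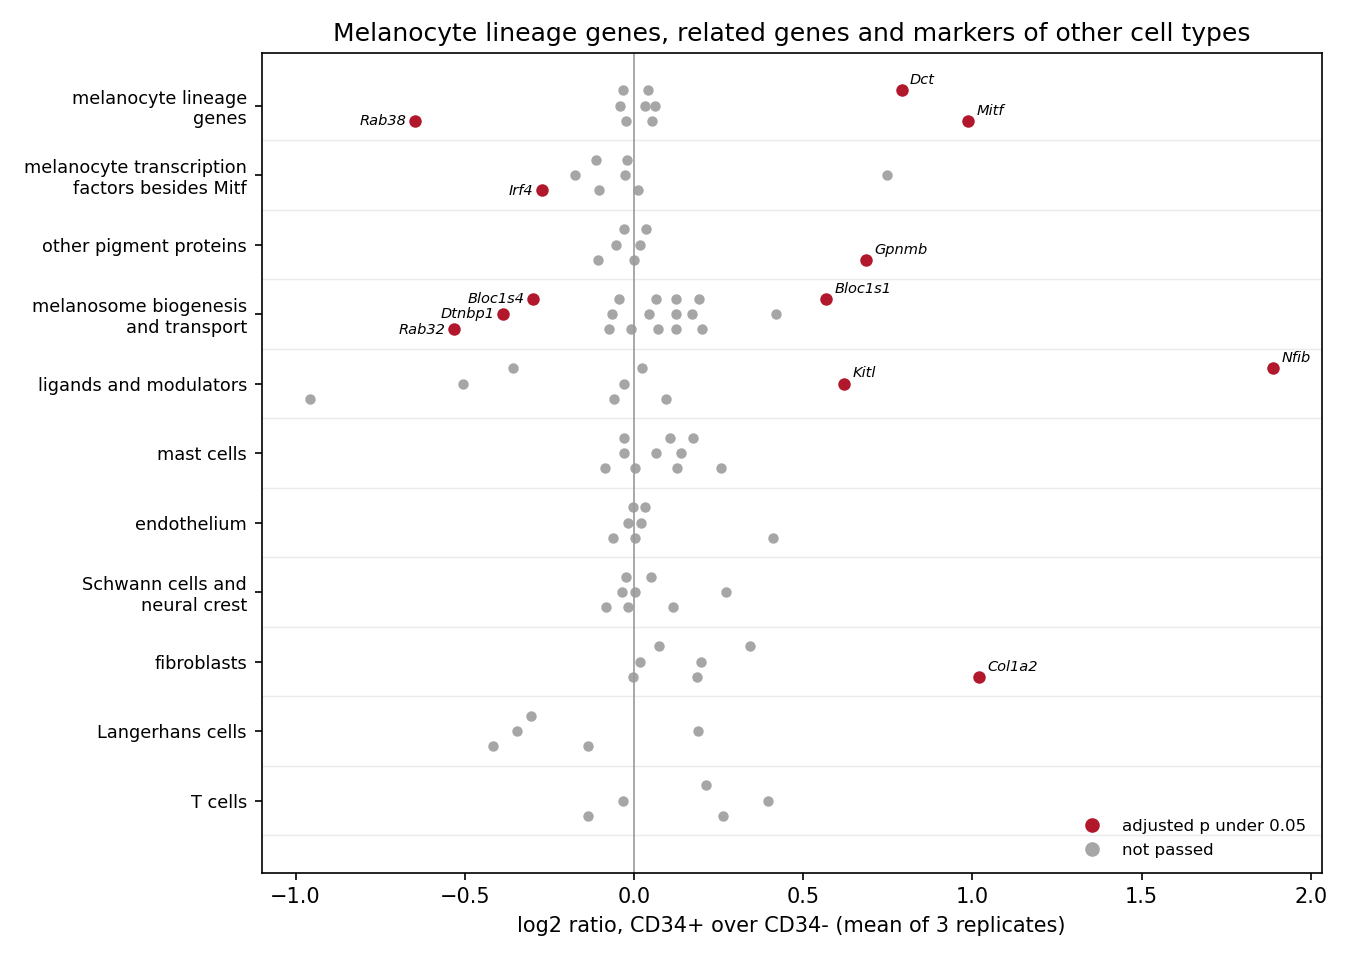
Mean log2 ratio of CD34+ over CD34- cells over 3 replicates (horizontal axis) for every tested gene of each list (rows), with red points for genes with an adjusted p under 0.05. Mitf, Dct and Gpnmb stand right of 0, Rab38 and Rab32 left of it, and no marker of mast cells, endothelium, Schwann cells, Langerhans cells or T cells is red. In the fibroblast row Col1a2 is red, right of 0.

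The keratinocyte and bulge markers describe the fractions, and not all of them went the same way. Of 8 tested, Cd34 among them, 4 rose and 2 fell, with a median of 0.58, beside 5.41% higher and 6.64% lower of all features. At an unadjusted p under 0.05 there were 7 of 8, beside 30.6% of all features. Tbx1, a T-box factor of the bulge, rose by 4.61 ± 0.31 (SD, n = 3, adjusted p 0.00358) next to Cd34, and Krt14, a keratin of basal cells, fell by 1.11 ± 0.41 (adjusted p 0.0309) next to Itga6. Without replicate 2 the adjusted p was 0.121 for Krt14 and 0.0634 for Itga6, and with scaling between arrays it was 0.0573 for Krt14. Krt14 averaged 19568 units in CD34+ cells and 59437 units in CD34- cells, so this keratinocyte marker was bright in both fractions. The other 4 are named here once their values were known. Lhx2 rose by 3.75 ± 0.15 and Itgb4 by 0.38 ± 0.094 (adjusted p 0.00358 and 0.0297). With median centring Itgb4 was at 0.15 and did not pass (adjusted p 0.523). Trp63 and Krt15 did not pass, at 0.046 ± 0.28 and 0.77 ± 0.52 (adjusted p 0.828 and 0.0935). Krt15 averaged 65233 units in CD34+ cells and 62584 units in CD34- cells.

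The genes with replicate ratios nearest to those of the 3 members that passed were sought among 9242 named genes outside the 10, by the Euclidean distance over 3 replicates. Among the genes nearest to Mitf were Cdc42ep3 and Hoxb6, at distances of 0.13 and 0.17 log2 units. Dct lay nearest to Krt23, Tmem109 and Nrtn, at 0.23, 0.23 and 0.25. Rab38 lay nearest to Hmgn5, Dnpep and Scarb2, at 0.032, 0.048 and 0.056. With 3 values per gene, this likeness describes the size of the ratios and their order over replicates.

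**Figure D4:**
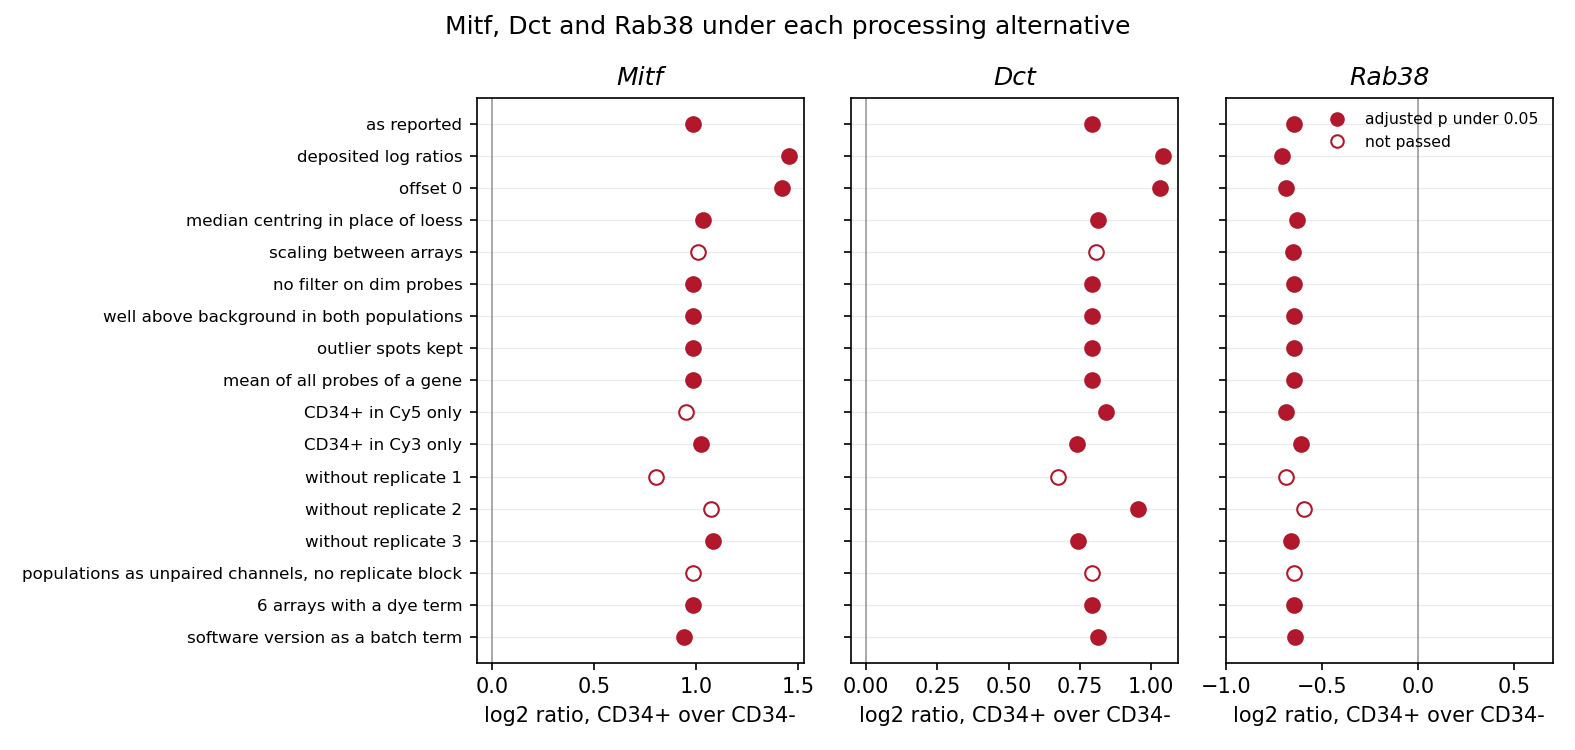
Log2 ratio of CD34+ over CD34- cells (horizontal axis) of Mitf, Dct and Rab38 as reported and under each of 16 processing alternatives (rows), with filled points where the adjusted p was under 0.05. Mitf passed in 11 of the 16, and Dct and Rab38 in 13 each, with the sign unchanged in all 16 for each of the 3 genes.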

How the data were processed

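Expression was read on 6 Agilent 2-colour arrays. The labels number the replicate of 4 of them, and the other 2, of opposite dye, were taken as replicate 3 by elimination. Spot and local background intensities are those of Agilent Feature Extraction, A.6.1.1 for replicate 3 and A.7.5.1 for replicates 1 and 2, per the file headers. The software also gave, per the file headers, a background-subtracted and dye-normalised log10 ratio (Cy5 over Cy3). It deposited a p-value with each ratio, from its own error model, which decided no call here. The deposited value table is the negative of the log10 ratio (largest difference 0).

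From the deposited intensities, limma 3.58.1 (R 4.3.3) corrected background by normexp with offset 50 and normalised each array by loess. Ratios were turned to CD34+ over CD34-, averaged per replicate and tested against 0 with lmFit and eBayes. A probe had to be well above background in either population in 2 of the 3 replicates, which left out 472, and 182 more carried an outlier mark. A gene was read by its brightest probe. RefSeq accessions named 8946 of the 20868 probes, hand-read descriptions 22 and symbols or synonyms the rest of the named ones, and 11228 stayed unnamed.

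Named are all 10 genes, the passing genes of 11 lists (the 2 largest rises and falls where over 4 passed), the lowest adjusted p of a list where none passed, Cd34, Itga6, the nearest genes, and Sox10 as a defining marker. Some genes that this rule names are not reported here. The members and lists were chosen with earlier results of these data known. The fit was tested on simulated data. The populations are paired within each array, per the labels. Both channels of a replicate deviated together from the population means (r over genes 0.80, 0.72 and 0.81 in replicates 1, 2 and 3), although they are read from the same spots. The 16 alternatives changed the ratio source, offset, normalisation, filters, probe choice, dye orientation, replicates, pairing and software batch.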

Additional observations from a re-analysis of the deposited data

How the results depend on the processing

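Mitf, Dct and Rab38 kept their sign under all 16 alternatives, with ranges of 0.80 to 1.45, 0.67 to 1.04 and -0.71 to -0.60. The call of Mitf ended with scaling between arrays (1.01, adjusted p 0.0562), with CD34+ in Cy5 only (0.95) and without replicates 1 or 2, and over the 3 settings without a replicate it ranged from 0.80 to 1.08. Dct lost its call with scaling (0.81, adjusted p 0.0556) and without replicate 1, over a range of 0.67 to 0.96. Rab38 lost its call without replicates 1 or 2, over a range of -0.68 to -0.60. When the channels were fitted as unpaired, with no replicate block, all 3 calls ended, at 0.99, 0.79 and -0.65 with adjusted p-values of 0.212, 0.178 and 0.320. The count of genes that rose among the 10 was 0 with scaling, 1 with CD34+ in Cy5 only, 0 with no block and 0 to 2 without a replicate, and the count that fell was 0 with no block and 0 to 1 without a replicate. Why scaling or the dye ended a call was not tested.

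Over all features, 0 passed in limma without replicate 1 (4637 at an unadjusted p under 0.05), 249 without replicate 2 and 4207 without replicate 3, against 2420 with all. The count was 546 with no replicate block, 4254 when the 6 arrays were fitted singly with the dye as a term, and 4742 with a term for the software version. Of the genes in the other 11 lists, 15 passed, beside 12.1% of all features. In the order given above, the lists held 8, 7, 18, 9, 10, 8, 7, 7, 5, 5 and 8 tested genes. The last list, which holds the sort gene Cd34, gave 4 rises and 2 falls of the 15. The count of 15 became 23 with CD34+ in Cy5 only, 0 to 22 without a replicate and 5 with no block. It was 25 with the dye as a term and 26 with the version term.

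The 7 members that did not pass, and Sox10, had ratios near 0, and of these all but Mc1r turned sign in places. With median centring Tyr was at 0.0099, Kit at 0.0017 and Ednrb at 0.021, with a median of all features of 0.033. With CD34+ in Cy5 only Tyr was at 0.053. With CD34+ in Cy3 only Tyrp1 was at -0.097, Pmel at -0.0071, Mlana at -0.034, Kit at 0.023 and Sox10 at -0.019. Without a replicate Pmel ranged from -0.018 to 0.092, Kit from -0.075 to 0.018, Ednrb from -0.087 to 0.021 and Sox10 from -0.0025 to 0.028. With the version term Ednrb was at 0.0098. None of the 7 passed under any of the 16 alternatives.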
